A study of Mus musculus with 28 samples.

Results

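The chronic phase of experimental autoimmune encephalomyelitis (EAE) was compared between RNA pulled down on tagged ribosomes of cortical neurons and RNA of the whole cortex. The comparison is the difference of 2 changes per gene: chronic minus healthy in the immunoprecipitated fraction (IP), minus chronic minus healthy in the input. It is called the interaction here, and on the log2 scale a positive value means that the chronic change was higher in IP than in input. Its members are all genes with enough counts to test, 16580 of the 43629 genes counted, in 18 of the 28 libraries of the series. They were not chosen by any measured change.

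EAE was induced by active immunisation with the myelin peptide MOG35-55. The 18 libraries were 4 of chronic IP and 5 of healthy IP, then 4 of chronic input and 5 of healthy input. Chronic mice were taken 30 days after immunisation and healthy mice had no EAE, per the labels. The other 10 libraries were taken at day 15, the acute phase, and entered the fit with them. Every group, healthy mice included, carried the Glt25d2 BacTRAP transgene, in which regulatory sequence of Glt25d2, now named Colgalt2, drives a ribosomal tag in projection neurons of cortical layer 5. Whether each library of a group is a separate mouse is not given in the labels. The p-values therefore measure spread among libraries, and that spread may be technical.

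EAE is a model of multiple sclerosis in which T cells directed at myelin enter the central nervous system. A ribosome pulldown recovers messenger RNA bound to tagged ribosomes, so it reports on RNA in use for translation in the tagged cells, while input reports on all cells of the tissue. Subtracting the input change removes from the IP change what occurred alike in whole cortex. Layer 5 projection neurons send long axons out of the cortex and depend on glycolysis, mitochondrial oxidation, protein quality control and axonal transport.

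Library totals were 11396791 to 19309770 counts in the IP libraries of chronic and healthy mice and 17848273 to 19858188 in the input libraries. Between 10933 and 14416 genes had a count in each IP library, against 20714 to 21167 in each input library. Of 2793 genes at 0.3 to 1.5 CPM (counts scaled to library size) in healthy input, 13.1% to 30.5% were detected in each chronic IP library and 15.2% to 38.2% in each healthy IP library, against 99.5% or more in each input library. Where detected, these genes had a median of 28.5 to 39 counts in chronic IP and 21 to 49 in healthy IP, against 15 to 16 in chronic and 14 to 16 in healthy input. The IP libraries with the fewest genes were chronic replicate 3 and healthy replicate 5, and results without them are given below. The biological coefficient of variation was 1.06 over IP libraries alone, 0.101 over input libraries alone and 0.71 in the joint fit.

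The pulldown was checked against layer 5 markers. Summed over 16 of them, the level was 2992 to 3973 CPM in chronic IP and 2380 to 2974 CPM in healthy IP, against 1139 to 1276 CPM in chronic input and 1169 to 1265 CPM in healthy input. The IP libraries were all above the input libraries, and chronic IP was above healthy IP, with neurofilament genes in the sum. The 13 inhibitory neuron markers summed to 1522 to 1946 CPM in chronic IP and 1115 to 1636 CPM in healthy IP, and to 1380 to 1577 CPM in chronic input and 1403 to 1707 CPM in healthy input. These ranges overlapped between fractions, so inhibitory neuron markers were not depleted from the pulldown as a sum.

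Summed astrocyte markers were apart between chronic and healthy IP, while those of microglia and oligodendrocytes overlapped. The 12 astrocyte markers, none of them at 0 in any group, summed to 1694 to 4011 CPM in chronic IP, against 1033 to 1572 CPM in healthy IP, and to 1991 to 3063 CPM in chronic input, against 1484 to 1905 CPM in healthy input. The 12 microglia markers, also none at 0, summed to 58.6 to 296 CPM in chronic IP, against 26.5 to 65.7 CPM in healthy IP, and to 102 to 249 CPM in chronic input, against 63.6 to 97.5 CPM in healthy input. Of 12 markers of infiltrating leukocytes, 10 were at 0 counts in all 4 chronic IP libraries and 9 in all 5 healthy IP libraries, among them Cd3e, Cd8a and Ccr2. The 12 oligodendrocyte markers summed to 1314 to 3313 CPM in chronic IP and 1136 to 1507 CPM in healthy IP. The part that glial RNA had in the results on IP was not tested, and in bulk samples fewer cells of a type and less RNA per cell cannot be told apart.

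The chronic change differed between IP and input in 170 genes, 1.03% of those tested, at an adjusted p under 0.05 by edgeR's quasi-likelihood test with Benjamini-Hochberg adjustment over all genes, the test behind every adjusted p given without another name. In 105 genes (0.633%) the chronic change was higher in IP and in 65 (0.392%) it was lower. The median log2 interaction over all tested genes was -0.05. By the same test 2734 of the 16580 genes had an unadjusted p under 0.05. The unadjusted counts of the gene lists below are to be read against that share. Among the 105 were enzymes of glucose and mitochondrial metabolism, heat shock chaperones, neurofilaments and subunits of the vesicle coat and of the vacuolar proton pump, at sizes mostly below 2 on the log2 scale. The 65 were mainly genes of low level with no count in chronic IP.

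The 105 higher genes fell into 84 at average log2 CPM 3 or more and 21 with 0 counts in all healthy IP libraries. Over the 84, the log2 interaction ran from 0.53 to 2.0 with a median of 0.88, a 1.84-fold difference between the changes. Their IP change had a median of 0.84 and lay between 0.41 and 1.92. Their input change had a median of -0.08 and lay between -0.21 and 0.14. The difference thus lay mostly in IP for these genes. In 81 of the 84 every chronic IP library was above every healthy one, against 2.41% of all tested genes. The input groups overlapped in 74. The 84 were selected with these same libraries, so their separation in IP is a description and no independent support. In input, 3.81% of all tested genes had every chronic library above every healthy one, and 2.21% had every one below.

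**Figure D1:**
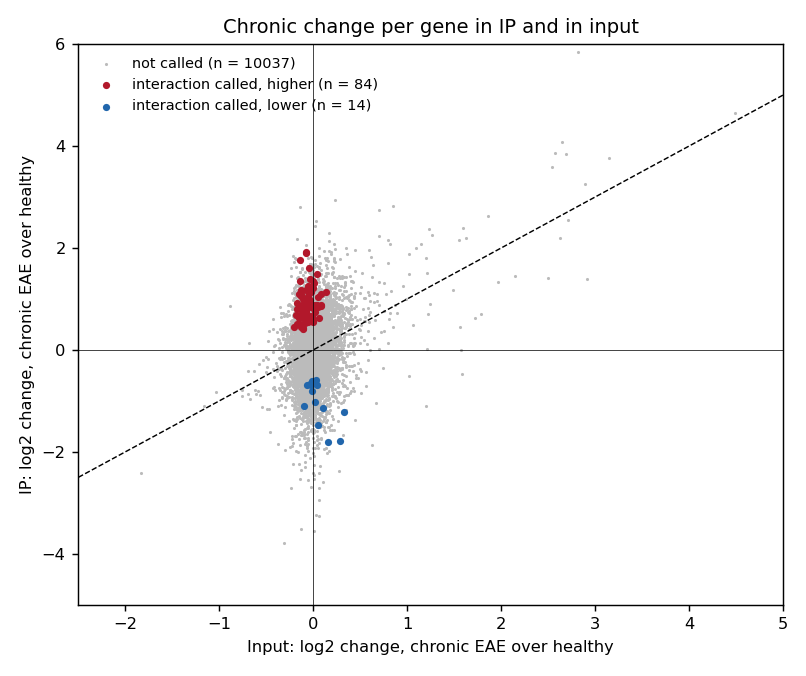
Log2 change of each gene in chronic EAE over healthy mice in IP (vertical axis) against input (horizontal axis), for genes at average log2 CPM 3 or more, from the joint fit. The 84 genes called higher (red) and the 14 called lower (blue) lie near 0 on the input axis, while grey genes far to the right changed in both fractions and lie near the dashed line of equal change. A further 3 grey genes lie outside the axes.

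The joint fit gives both fractions one estimate of spread per gene. In it the IP change was itself called in all 105 higher genes, where 6.88% of tested genes were called higher in IP. It was called in 63 of the 65 lower genes, where 8.5% were called lower. The interaction contains the IP change, so these counts are no separate support. When the IP libraries were fitted alone, with their larger spread, 26 of 13914 genes (0.187%) were called in chronic against healthy IP, 25 higher and 1 lower (0.00719%). Of those, 19 higher genes and 1 lower gene were among the 170. A fit with a spread per fraction (limma's voom with quality weights by fraction) called 47 genes in the interaction (0.283%), 33 higher and 14 lower (0.0844%). It shared 26 of the 105 higher genes, all of them at average log2 CPM 3 or more, and 7 of the 65 lower genes, none at that level. The p-values of the joint fit are therefore given with those of voom for the genes described first. Leaving out 1 numbered pair of libraries at a time left 43 to 148 calls, the fewest without chronic replicate 3 or without healthy replicate 1, and a fit without chronic replicate 3 and healthy replicate 5 left 24. Of 70 called genes followed through the alternatives, some of them chosen because voom called them, 21 passed in all 9 leave-one-out fits and 6 in none, namely Wdr36, Asns, Dync1i1, Glud1, Got1 and Atp6v1h. Of the 70, 32 were called by voom, 15 without the 2 IP libraries with the fewest genes and 62 with an offset for exon length and GC content. A block per replicate number gave 46 calls, with 33 of the 105 higher and 3 of the 65 lower genes among them.

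Enzymes of glucose breakdown came first, with the most calls of any list. Pygb (ENSMUSG00000033059, GRCm38 chr2:150786735-150831758, plus strand), the brain form of glycogen phosphorylase that releases glucose units from glycogen, had 263, 336, 310.0 and 407 CPM in the chronic IP libraries, against 121, 128, 128, 135 and 75.7 CPM in the healthy IP libraries. It had 138, 154, 155 and 149.6 CPM in chronic input, against 144, 149, 135, 145 and 150.3 CPM in healthy input. All chronic IP libraries were above all healthy ones, of which replicate 5 was the lowest, and the input groups overlapped closely. For Pygb the log2 interaction was 1.44 ± 0.22 (SE, adjusted p = 0.00174), with an adjusted p of 0.00366 by voom, and it passed in 9 of 9 leave-one-out fits.

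Pfkp (ENSMUSG00000021196, chr13:6579768-6648777, minus strand), the platelet form of phosphofructokinase, which commits sugar to glycolysis, had 971, 1492, 940.1 and 1055 CPM in the chronic IP libraries, against 476, 438, 549.6, 658 and 485 CPM in the healthy IP libraries. It had 324, 319.8, 317 and 283 CPM in chronic input, against 364, 354, 316, 356 and 339 CPM in healthy input. The IP groups were apart, with chronic replicate 2 the highest of all, and the input groups overlapped with chronic replicate 4 the lowest. For Pfkp the log2 interaction was 1.25 ± 0.20 (SE, adjusted p = 0.00187), 0.00366 by voom, and it passed in 9 of 9 leave-one-out fits.

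The other forms of the same enzyme and the steps around it had smaller differences. Pfkm, the muscle form, had 1372, 1584, 1408 and 1321 CPM in the chronic IP libraries, against 888, 941, 828, 965 and 887 CPM in the healthy IP libraries, and a log2 interaction of 0.78 ± 0.17 (SE, adjusted p = 0.0228). Pfkl, the liver form, had 738, 822, 708 and 679 CPM in the chronic IP libraries, against 402, 417, 484, 548 and 481 CPM in the healthy IP libraries, and a log2 interaction of 0.71 ± 0.15 (SE, adjusted p = 0.0247). Every chronic IP library was above every healthy one for both, and their input groups overlapped. Hk1, the hexokinase that phosphorylates glucose on entry, had 1395, 1507, 1429.8 and 1142 CPM in the chronic IP libraries, against 817, 1000.0, 662, 949 and 819 CPM in the healthy IP libraries, with a log2 interaction of 0.78 ± 0.16 (SE, adjusted p = 0.017). Gpi1, glucose-6-phosphate isomerase, had a log2 interaction of 0.61 ± 0.15 (SE, adjusted p = 0.0406). In Hk1 and Gpi1 too the IP groups did not overlap.

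Of 16 glycolysis enzymes tested, these 5 were called higher (Pfkp, Hk1, Pfkm, Pfkl and Gpi1) and 0 lower, with a median log2 interaction of 0.45, against -0.05 over all genes. All 16 lay above 0, from 0.04 to 1.25, and the median stayed between 0.32 and 0.51 in the leave-one-out fits. In the leave-one-out fits 1 to 6 of the 16 were called. Unadjusted p-values under 0.05 numbered 10, all with higher values, and 7 genes were called with the length and GC offset. The replicate block called 5, voom called 2, and 1 was called without the 2 IP libraries with the fewest genes. By voom, Hk1 (adjusted p = 0.0587) and Pfkl (adjusted p = 0.0548) missed the threshold. Among the enzymes not called, Aldoc missed the threshold at 0.87 (adjusted p = 0.0502), Gapdh had 0.25 (adjusted p = 0.648) and Pgk1 had 0.10 (adjusted p = 1). Aldoc was called with that offset (adjusted p = 0.0233). It is also a marker of astrocytes, and its input change was 0.24 while that of Pfkp was -0.15. The lists were chosen with earlier results of these data known, so these counts are a description and not independent evidence of direction.

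Mitochondrial and anaplerotic enzymes formed a second group. Summed astrocyte markers were also higher in chronic IP. Which cells gave the IP values of Pygb above, and of Pcx and Aldh2 below, was not tested. Pcx (ENSMUSG00000024892, chr19:4510472-4621752, plus strand), pyruvate carboxylase, which makes oxaloacetate from pyruvate, had 118, 153, 111 and 129.7 CPM in the chronic IP libraries, against 48.6, 45.3, 58.0, 62.7 and 43.8 CPM in the healthy IP libraries. It had 49.3, 49.3, 50.6 and 48.9 CPM in chronic input, against 49.0, 50.3, 44.1, 51.2 and 52.4 CPM in healthy input. The chronic IP group lay far above the healthy one and also above input, while healthy IP stood at about the level of input. For Pcx the log2 interaction was 1.31 ± 0.20 (SE, adjusted p = 0.00174), 0.0225 by voom, passing in 9 of 9 leave-one-out fits.

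Ogdhl, an isoform of the E1 subunit of 2-oxoglutarate dehydrogenase, had 256, 313, 297 and 239.6 CPM in the chronic IP libraries, against 116, 125, 118, 154 and 130.4 CPM in the healthy IP libraries. Its input groups, with 75.6, 81.1, 81.8 and 76.9 CPM in chronic input, against 74.5, 78.4, 71.8, 73.1 and 76.2 CPM in healthy input, overlapped. For Ogdhl the log2 interaction was 1.03 ± 0.16 (SE, adjusted p = 0.00187), 0.0129 by voom. Its IP groups did not overlap.

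Of 25 tricarboxylic acid (TCA) cycle and mitochondrial enzymes and carriers, 3 were called higher and 0 lower. Among them were Glud1, which is glutamate dehydrogenase, at 0.79 (adjusted p = 0.0406), and Got1, the cytosolic aspartate aminotransferase, at 0.55 (adjusted p = 0.0481). All 25 had a log2 interaction above 0, with a median of 0.31 and a range of 0.29 to 0.39 for that median in the leave-one-out fits. Citrate synthase (Cs) missed the threshold at 0.67 (adjusted p = 0.0551). Got1 and Glud1 passed in none of the 9 leave-one-out fits.

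Lrpprc, a mitochondrial RNA-binding protein that stabilises transcripts of the mitochondrial genome, had 202, 380.3, 261 and 277 CPM in the chronic IP libraries, against 111, 130.2, 83.0, 107 and 114 CPM in the healthy IP libraries. It had 51.7, 60.5, 63.2 and 47.4 CPM in chronic input, against 60.1, 62.9, 56.8, 62.8 and 65.4 CPM in healthy input. Chronic replicate 2 was the highest and the IP groups were apart. For Lrpprc the log2 interaction was 1.5 ± 0.25 (SE, adjusted p = 0.00261), 0.0129 by voom. Lonp2, a protease of peroxisomes, had 209, 209, 229.7 and 178 CPM in the chronic IP libraries, against 88.2, 89.6, 92.2, 117 and 84.4 CPM in the healthy IP libraries, and a log2 interaction of 1.17 ± 0.20 (SE, adjusted p = 0.00261), with 0.0548 by voom. Aldh2, mitochondrial aldehyde dehydrogenase, had a log2 interaction of 1.0 (adjusted p = 0.00823). It was named after its values were seen, as a gene that voom also called.

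The respiratory chain was divided. Among 47 nuclear-encoded subunits of the chain and ATP synthase, 3 were called higher and 0 lower: Sdha of complex II at 0.68 (adjusted p = 0.0192), Ndufs1 of complex I at 0.85 (adjusted p = 0.0228) and Uqcrc2 of complex III at 0.78 (adjusted p = 0.0369). Ndufs1 had 272, 380.0, 336 and 281 CPM in the chronic IP libraries, against 211, 135, 209, 161 and 234 CPM in the healthy IP libraries, so every chronic library was above every healthy one. The median over the 47 was nonetheless -0.27, with 33 below 0. With an offset for exon length and GC content the median was -0.03, and 6 were called higher. Ndufs1 was not called with that offset, at 0.70 (adjusted p = 0.0944). With 1 pair left out 0 to 3 of the 47 were called.

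Genes of the mitochondrial genome went the other way. mt-Nd4, a complex I subunit, had 5.92, 21.6, 23.1 and 26.9 CPM in the chronic IP libraries, against 86.8, 67.3, 77.2, 38.4 and 63.0 CPM in the healthy IP libraries. It had 334, 233, 355 and 629 CPM in chronic input, against 277, 225, 495, 321 and 269.9 CPM in healthy input. The chronic IP libraries were all below the healthy ones, replicate 1 the furthest, and the input groups overlapped. For mt-Nd4 the log2 interaction was -2.07 ± 0.46 (SE, adjusted p = 0.0277), but 0.939 by voom and 0.066 with the length and GC offset, and it passed in 4 of 9 leave-one-out fits.

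mt-Cytb, a complex III subunit, had 33.8, 58.7, 30.1 and 40.8 CPM in the chronic IP libraries, against 110.3, 86.3, 135, 52.9 and 87.3 CPM in the healthy IP libraries, and these groups overlapped. For mt-Cytb the log2 interaction was -1.53 ± 0.39 (SE, adjusted p = 0.049), with 0.945 by voom. All 12 mitochondrially encoded genes tested had a log2 interaction below 0, with a median of -1.52, of -1.16 with the length and GC offset, and 2 called lower and 0 higher. These genes took 0.0172% to 0.0322% of counts in chronic IP and 0.0305% to 0.0785% in healthy IP, against 0.354% to 0.873% in chronic input and 0.325% to 0.634% in healthy input. Their transcripts are translated inside mitochondria by ribosomes that do not carry the tag, and the part of such RNA in the differences above was not tested.

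**Figure D2:**
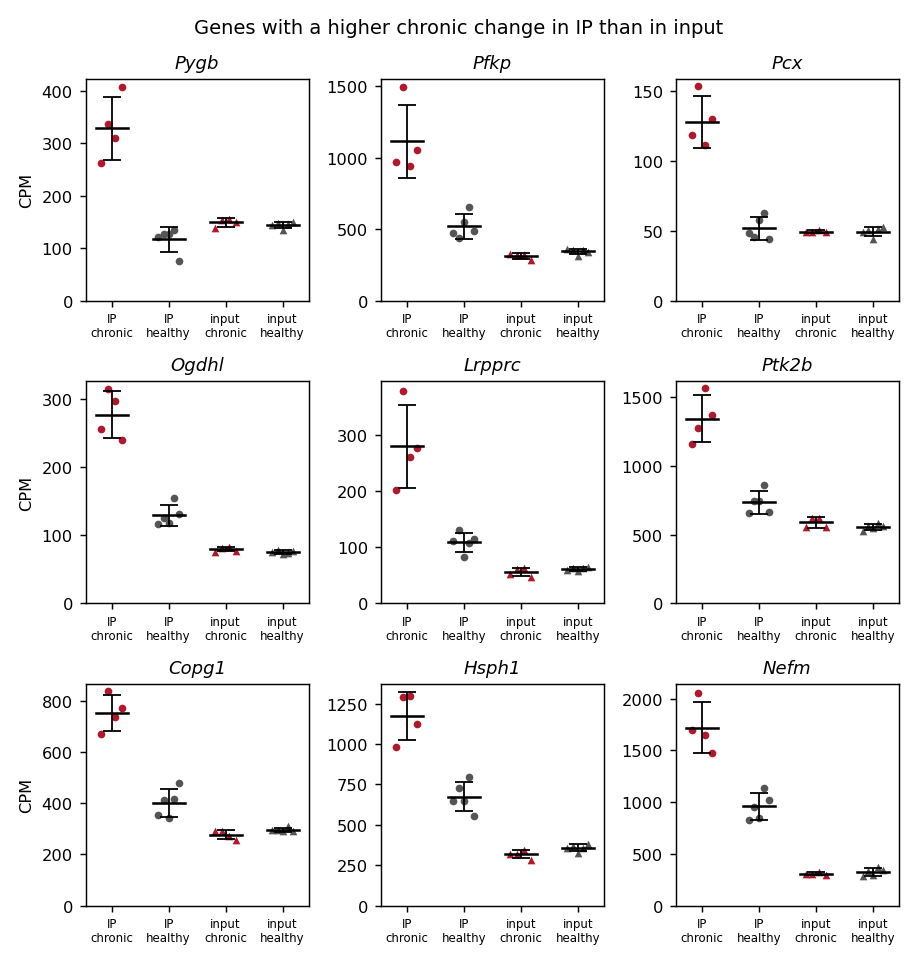
CPM (linear axis from 0) of 9 genes called higher, in each library of chronic IP and healthy IP (circles) and of chronic input and healthy input (triangles); bars are means with SD (n = 4 chronic, 5 healthy). In each panel the chronic IP libraries lie above all healthy IP libraries, while the chronic and healthy input libraries lie close together.

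Heat shock chaperones were next. Hsph1 (ENSMUSG00000029657, chr5:149614287-149636376, minus strand), a large heat shock protein that exchanges the nucleotide of Hsp70, had 983, 1289, 1294 and 1125 CPM in the chronic IP libraries, against 649, 726, 648, 796 and 554 CPM in the healthy IP libraries. It had 318, 322, 346 and 285 CPM in chronic input, against 358, 369, 324, 354 and 381 CPM in healthy input. The IP groups were apart and the input groups overlapped. For Hsph1 the log2 interaction was 0.97 ± 0.16 (SE, adjusted p = 0.00261), 0.0404 by voom.

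Both cytosolic forms of Hsp90 were called, and in both the input change was below 0. Hsp90aa1, the inducible form, had 2950.4, 3662, 3571 and 3071 CPM in the chronic IP libraries, against 2320.2, 2239, 2783, 2742 and 2119.6 CPM in the healthy IP libraries, while it had 1005, 1079.5, 1101 and 976 CPM in chronic input, against 1159.9, 1192, 1169, 1210.1 and 1279 CPM in healthy input. Here chronic IP was above healthy IP and chronic input below healthy input, with no overlap in either fraction. For Hsp90aa1 the log2 interaction was 0.65 ± 0.12 (SE, adjusted p = 0.00823), made up of 0.44 in IP and -0.21 in input. Hsp90ab1, the constitutive form, had 4594, 7023, 5427 and 4625 CPM in the chronic IP libraries, against 3216, 3703, 3922, 4259 and 4055 CPM in the healthy IP libraries, and a log2 interaction of 0.64 ± 0.14 (SE, adjusted p = 0.0277). Both input changes were called, as lower, when the input libraries were fitted apart, where 2.74% of 16381 genes were called. Hspa4, a relative of Hsph1, completed the 4 called of 16 chaperones at 0.78 (adjusted p = 0.0413), with chronic replicate 3 far above the rest, and it passed in 1 of 9 leave-one-out fits. The list's median was 0.36, with 11 of 16 above 0.

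Of 31 proteasome subunits, 2 were called higher and 0 lower, and the median of 0.09 was close to that of all genes. Psmd1, a scaffold subunit of the regulatory cap, had 141, 206, 185 and 150.2 CPM in the chronic IP libraries, against 90.8, 101, 89.3, 99.3 and 72.8 CPM in the healthy IP libraries. It had 99.8, 100.4, 110.4 and 94.9 CPM in chronic input, against 117, 114, 112, 114 and 116 CPM in healthy input. The IP groups were apart with chronic above, and in input every chronic library was below every healthy one. For Psmd1 the log2 interaction was 1.09 ± 0.18 (SE, adjusted p = 0.00261), 0.0499 by voom. Psmd2, the other scaffold subunit of the cap, had 493, 542, 596 and 669.8 CPM in the chronic IP libraries, against 354, 351, 306, 387 and 323 CPM in the healthy IP libraries, and a log2 interaction of 0.82 ± 0.16 (SE, adjusted p = 0.0158). Among 22 genes of the unfolded protein and integrated stress responses 1 was called, Asns, asparagine synthetase, at 1.11 (adjusted p = 0.0406), and the median was -0.01; Asns passed in 0 of 9 leave-one-out fits.

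Neurofilaments, the intermediate filaments of large axons, moved together in IP. Nefm, the medium chain, had 1699.9, 2057, 1645 and 1474 CPM in the chronic IP libraries, against 831, 952, 850.0, 1138 and 1024 CPM in the healthy IP libraries. It had 309.7, 305, 326 and 297 CPM in chronic input, against 286, 332, 297, 375 and 343 CPM in healthy input. Chronic IP was above healthy IP in every library, and the input groups overlapped. For Nefm the log2 interaction was 0.92 ± 0.15 (SE, adjusted p = 0.00261), 0.0556 by voom.

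Nefl, the light chain, had 1274, 1788, 1645 and 1467 CPM in the chronic IP libraries, against 903, 1019, 1010.2, 939 and 714 CPM in the healthy IP libraries, with a log2 interaction of 0.74 ± 0.15 (SE, adjusted p = 0.017), 0.0402 by voom. Nefh, the heavy chain, had 210.4, 273, 252 and 187 CPM in the chronic IP libraries, against 96.4, 144, 117, 147 and 124 CPM in the healthy IP libraries, with a log2 interaction of 0.88 ± 0.19 (SE, adjusted p = 0.0266), 0.157 by voom. In both, the IP groups did not overlap. Nefm and Nefl lie on opposite strands of chromosome 14 and share 1108 bases of exon, 19.2% of Nefm and 32.8% of Nefl, so without strand their reads cannot be fully told apart. These 3 were the calls among 13 genes of neurofilaments and neuronal cytoskeleton, whose median was 0.50.

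Of 19 kinesin and dynein motor genes, 2 were called higher and 0 lower, with a median of 0.42. With 1 pair left out 0 to 1 were called, and 0 by voom. Kif3a, a motor subunit of kinesin-2, had 381, 356, 483 and 329.7 CPM in the chronic IP libraries, against 227, 245, 235, 244 and 249.7 CPM in the healthy IP libraries, and its groups did not overlap. For Kif3a the log2 interaction was 0.87 ± 0.18 (SE, adjusted p = 0.0197), and Dync1i1, an intermediate chain of dynein, had 0.85 (adjusted p = 0.0414) and passed in 0 of 9 leave-one-out fits. Kifap3, which joins kinesin-2 to its cargo and was named after its values were seen, had 0.99 (adjusted p = 0.0406) and passed in 1 of 9 of these fits. Dynll2, a dynein light chain, stood against the rest at -0.53 (adjusted p = 0.0514), short of the threshold.

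Copg1 had the smallest p of the comparison. Copg1 (ENSMUSG00000030058, chr6:87887814-87913595, plus strand), a subunit of the COPI coat that carries cargo from the Golgi back to the endoplasmic reticulum, had 669, 837, 736 and 769.9 CPM in the chronic IP libraries, against 353, 412, 341, 417 and 480.1 CPM in the healthy IP libraries. It had 289.6, 291, 269.9 and 254 CPM in chronic input, against 297, 294, 290.4, 309.5 and 291 CPM in healthy input. The IP groups were apart, and the input groups overlapped with chronic replicate 4 the lowest. For Copg1 the log2 interaction was 1.01 ± 0.14 (SE, adjusted p = 0.00174), 0.00934 by voom, passing in 9 of 9 leave-one-out fits. Copa, another COPI subunit, named after its values were seen, had 379, 391, 488 and 317 CPM in the chronic IP libraries, against 239, 243, 191, 259 and 169 CPM in the healthy IP libraries, and a log2 interaction of 0.92 ± 0.18 (SE, adjusted p = 0.0158).

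The vacuolar proton pump, which acidifies lysosomes and synaptic vesicles, had members in both directions. Of 16 subunits 3 were called higher and 1 lower, with a median of 0.09. Atp6v1a, the catalytic subunit, had 1444, 1406, 1900.4 and 1542 CPM in the chronic IP libraries, against 967, 868, 867, 999 and 700.3 CPM in the healthy IP libraries, without overlap, and for Atp6v1a the log2 interaction was 0.99 ± 0.18 (SE, adjusted p = 0.00823), 0.0499 by voom. Atp6v1h and Atp6v1b2, also of the cytosolic V1 sector, had 0.82 (adjusted p = 0.0411) and 0.53 (adjusted p = 0.0277). Atp6v1h passed in 0 of 9 leave-one-out fits and was not called with the length and GC offset (adjusted p = 0.127), while Atp6v1b2 passed in 4 of 9 and was called with it. Atp6v1g2, the G subunit form of neurons, had 707, 730.3, 532 and 448 CPM in the chronic IP libraries, against 977, 999, 969.7, 952 and 981 CPM in the healthy IP libraries, the chronic libraries all below the healthy ones. For Atp6v1g2 the log2 interaction was -0.63 ± 0.15 (SE, adjusted p = 0.0378), with 0.0934 by voom. The exons of Atp6v1g2 sum to 2510 bases, and with the length and GC offset its interaction was -0.58 (adjusted p = 0.0119), while it passed in 2 of 9 leave-one-out fits.

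Neuronal signalling and identity genes contributed single members. Ptk2b, a calcium-sensitive tyrosine kinase of forebrain neurons, had 1159, 1277, 1566 and 1371 CPM in the chronic IP libraries, against 654, 744, 746, 862 and 665 CPM in the healthy IP libraries, and the groups did not overlap. For Ptk2b the log2 interaction was 0.79 ± 0.13 (SE, adjusted p = 0.00261), 0.0404 by voom. Gad1, which makes GABA in inhibitory neurons, had 607, 646, 605 and 796 CPM in the chronic IP libraries, against 289, 364, 345, 444 and 242 CPM in the healthy IP libraries, while it had 410.2, 411, 441 and 373 CPM in chronic input, against 397, 412, 442, 460.0 and 402 CPM in healthy input. Its chronic IP libraries were above all others of either fraction, and its healthy IP libraries lay mostly below input. For Gad1 the log2 interaction was 1.03 ± 0.21 (SE, adjusted p = 0.017), 0.0489 by voom.

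Gad1 was the one call among 13 inhibitory neuron markers, whose median was 0.27 and ran from -0.01 to 0.41 in the leave-one-out fits. Rasgrf2, a marker of upper layers, was the call among 13 markers of other layers at 0.84 (adjusted p = 0.0406). Its adjusted p by voom was 0.478, and it passed in 1 of 9 leave-one-out fits. Camk2b, a subunit of the calcium kinase of synapses, was the call among 24 glutamate receptor and postsynaptic genes at 0.54 (adjusted p = 0.0411). For Camk2b the adjusted p was 0.138 by voom and 0.0605 with the length and GC offset, and it passed in 1 of 9 leave-one-out fits. Of 16 layer 5 markers, 2 were called higher, Nefm and Nefh, and the median was 0.00. The transcription factors Fezf2 and Bcl11b, which specify these neurons, had -0.19 (adjusted p = 1) and -0.04 (adjusted p = 1).

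Other genes were named for the size of their log2 interaction. Wdr36, involved in ribosome assembly, had 70.4, 90.9, 117 and 53.5 CPM in the chronic IP libraries, against 23.6, 12.3, 20.5, 26.5 and 26.4 CPM in the healthy IP libraries, and 24.4, 24.3, 28.2 and 23.2 CPM in chronic input, against 27.9, 26.5, 24.6, 26.6 and 26.6 CPM in healthy input. The chronic IP libraries were all higher than every other library, and the input groups overlapped. For Wdr36 the log2 interaction was 2.0 ± 0.51 (SE, adjusted p = 0.049), 0.0402 by voom, but it passed in 0 of 9 leave-one-out fits, with adjusted p from 0.0643 to 0.117.

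Heatr5b, a trafficking protein, reached 1.90 (adjusted p = 0.0459) and Scfd2, of the Sec1 family of trafficking proteins, 1.65 (adjusted p = 0.0406). Ubr4, a ubiquitin ligase, reached 1.43 (adjusted p = 0.017) and Ctps, CTP synthase, 1.31 (adjusted p = 0.0456). Prr14l and Ppp4r4, a regulatory subunit of protein phosphatase 4, reached 1.36 (adjusted p = 0.0424) and 1.31 (adjusted p = 0.0277). In all of these every chronic IP library was above every healthy one, while Heatr5b, Scfd2 and Ctps each passed in 1 of 9 leave-one-out fits, Prr14l in 2 of 9, Ppp4r4 in 3 of 9 and Ubr4 in 7 of 9. Of the 6, voom called Ctps alone. Ubr4 had 81.9, 93.7, 209 and 134 CPM in the chronic IP libraries, against 47.9, 27.9, 56.7, 60.2 and 53.5 CPM in the healthy IP libraries, with chronic replicate 3 highest. It also had 111, 107, 106 and 95.4 CPM in chronic input, against 107, 114, 114, 112 and 90.5 CPM in healthy input, so healthy IP lay below input.

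Of the 84 higher genes, 63 had a healthy IP mean above the healthy input mean, and 81 a chronic IP mean above the chronic input mean. The share of all tested genes above input was not computed, so neither count is shown to be particular to these genes. Selection for a higher change in chronic IP also favours the second count. The 21 that stood below input in healthy mice included Pygb, Gad1, Psmd1, Ubr4 and Wdr36. Since the healthy libraries enter both this ratio and the interaction, these counts are a description with no test.

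Among the 65 lower genes, 14 had an average log2 CPM of 3 or more, and their log2 interaction ran from -2.07 to -0.59. In 13 of the 14 every chronic IP library was below every healthy one, against 1.64% of all tested genes, a separation that the selection itself favours. Jpt1 (ENSMUSG00000020737, chr11:115497353-115514387, minus strand), a small microtubule-associated protein, had 100.3, 85.2, 68.3 and 62.7 CPM in the chronic IP libraries, against 182, 179, 153, 146 and 194 CPM in the healthy IP libraries. It had 91.1, 86.1, 91.2 and 88.9 CPM in chronic input, against 103, 94.0, 93.4, 93.5 and 93.4 CPM in healthy input. Chronic libraries were below healthy ones in both fractions, by far more in IP. For Jpt1 the log2 interaction was -1.02 ± 0.21 (SE, adjusted p = 0.0171), with 0.0548 by voom, and it was also the 1 gene called lower when IP was fitted apart.

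Zdhhc20, a palmitoyltransferase, had 7.80, 3.53, 6.55 and 8.50 CPM in the chronic IP libraries, against 32.5, 27.2, 23.1, 18.1 and 15.0 CPM in the healthy IP libraries. It had 34.1, 38.7, 40.3 and 46.3 CPM in chronic input, against 36.7, 34.1, 40.0, 33.2 and 35.3 CPM in healthy input. The chronic IP libraries were the lowest, healthy IP lay below input, and the input groups overlapped. For Zdhhc20 the log2 interaction was -1.96 ± 0.41 (SE, adjusted p = 0.0192), but 0.488 by voom.

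Camk2n1, an inhibitor of the calcium kinase of which Camk2b is a subunit, had 1337, 1119, 1018 and 782 CPM in the chronic IP libraries, against 1952, 1785, 1502, 1638 and 1673 CPM in the healthy IP libraries, and a log2 interaction of -0.73 ± 0.16 (SE, adjusted p = 0.0312). Pcp4l1, a small protein related to a calmodulin regulator, had 48.1, 33.6, 29.7 and 39.8 CPM in the chronic IP libraries, against 75.6, 71.9, 81.0, 86.6 and 99.8 CPM in the healthy IP libraries, and a log2 interaction of -1.23 ± 0.28 (SE, adjusted p = 0.0357). Their IP groups did not overlap, and their adjusted p by voom was 0.386 for Camk2n1 and 0.768 for Pcp4l1. Arhgdia, an inhibitor of nucleotide exchange on small GTPases, had 409, 424, 310.0 and 342 CPM in the chronic IP libraries, against 520.1, 646, 482, 557 and 592 CPM in the healthy IP libraries, and a log2 interaction of -0.62 ± 0.14 (SE, adjusted p = 0.0266).

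Snx3, a sorting nexin of endosomes, had -0.67 (adjusted p = 0.036). Med28, a Mediator subunit, had -1.04 (adjusted p = 0.0377). Map2k2, the kinase MEK2, had -0.78 (adjusted p = 0.0445). Serf2 had -1.51 (adjusted p = 0.0369), with 65.4% of its exon bases shared with other genes. In each of these the chronic IP libraries were all below the healthy ones, voom called none of them, and each passed in 1 of 9 leave-one-out fits.

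**Figure D3:**
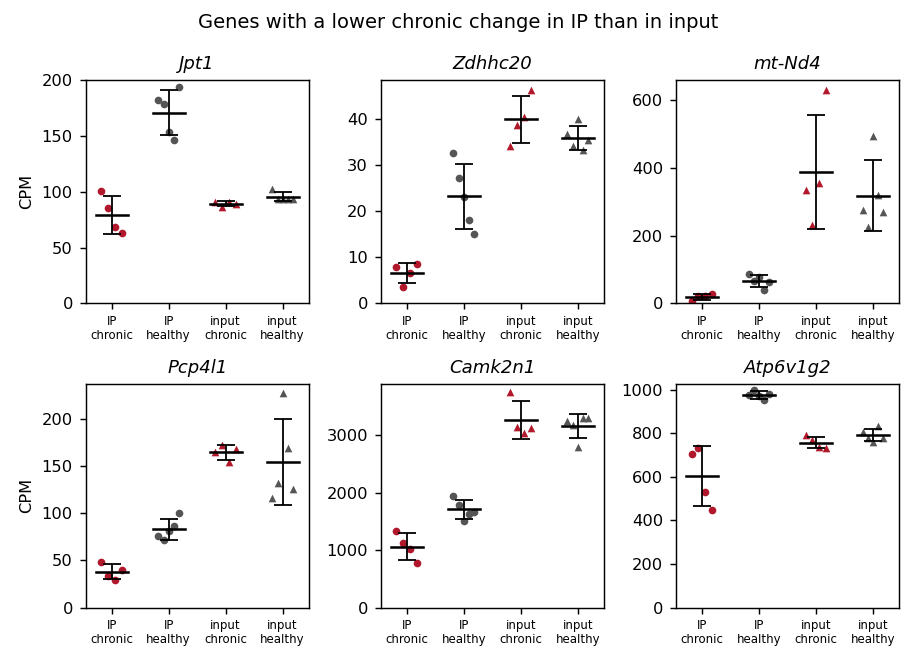
CPM (linear axis from 0) of 6 genes called lower, in each library of chronic IP and healthy IP (circles) and of chronic input and healthy input (triangles); bars are means with SD (n = 4 chronic, 5 healthy). In all 6 panels the chronic IP libraries lie below every healthy IP library, and none of these genes was called by the fit with a spread per fraction.

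The other 51 lower genes had 0 counts in all 4 chronic IP libraries, as did 12.9% of all tested genes, and 0 counts in all 5 healthy IP libraries was the state of 8.62%. For 49 of the 51, healthy IP held 109 to 816 counts in 3 to 5 libraries. Uvssa, a factor of transcription-coupled DNA repair, had 0 counts in chronic IP and 11.8, 5.06, 2.54, 6.94 and 10.01 CPM in healthy IP, while it had 8.91, 6.24, 6.79 and 7.25 CPM in chronic input, against 8.89, 8.06, 5.65, 7.23 and 7.70 CPM in healthy input. Its input groups overlapped. Against a floor of 3 counts over the chronic group, its chronic change was at least 127-fold lower in IP than in input, a bound that covers counting error only.

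Itga2b, an integrin chain, had 0 counts in chronic IP and 4.02, 2.24, 2.94, 4.08 and 3.83 CPM in healthy IP, and the bound was at least 55.2-fold lower. Fgfbp3, which binds fibroblast growth factors, had 0 counts in chronic IP and 13.4, 5.32, 10.7, 4.97 and 3.60 CPM in healthy IP, at least 169-fold lower. These 3, with Ccdc153 and Plgrkt, passed in all 9 leave-one-out fits and were called by voom, and were named after their values were seen. Without the 2 IP libraries with the fewest genes Plgrkt was called (adjusted p = 0.0367) and the other 4 were not (0.0533 to 0.0724). Lpcat3, which builds polyunsaturated phospholipids, was the 1 call among 24 ferroptosis and antioxidant genes, with 0 counts in chronic IP and 11.8, 5.98, 2.37, 8.64 and 0 CPM in healthy IP, at least 108-fold lower, and 0.097 by voom. Genes at such levels were often missed in single IP libraries of either group, as the detection shares above show.

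The remaining 2, Lcn2 and Il1rn, were called higher in input fitted apart. Lcn2, lipocalin 2, a secreted iron-siderophore carrier made by reactive astrocytes, had 2.396, 2.98, 2.80 and 3.33 CPM in chronic input and 0 counts in healthy input. In IP it had 0 counts in the 4 chronic libraries and 1.91 CPM in 1 of 5 healthy libraries. The adjusted p was 0.0277, and 0.0402 by voom. Lcn2 passed in 5 of 9 leave-one-out fits, and without healthy replicate 4, the IP library with its reads, the adjusted p was 1.0. Both genes were named after their values were seen.

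Conversely, 21 of the higher genes had 0 counts in all healthy IP libraries, and their reads came from 3 chronic IP libraries in 10 genes, from 2 in 10 genes and from 1 in 1 gene. Sting1 (ENSMUSG00000024349, chr18:35733678-35740554, minus strand), the sensor of cyclic dinucleotides for which the study is titled, was among them. It had 0, 7.47, 18.6 and 3.17 CPM in chronic IP and 0 counts in all 5 healthy IP libraries. In input it had 1.46, 1.39, 0.999 and 2.55 CPM in chronic input, against 0.662, 0.312, 0.680, 0.458 and 0.937 CPM in healthy input, and the groups did not overlap. With a floor of 3 counts over the healthy IP group, the chronic change was at least 63.0-fold higher in IP than in input. That bound covers counting error only, and not the missed detection of such genes in single IP libraries. The adjusted p was 0.0413. It was 0.339 by voom, and the call passed in 1 of 9 leave-one-out fits, with adjusted p from 0.0274 to 0.107. Without chronic replicate 3 and healthy replicate 5 the adjusted p for Sting1 was 0.143. With a block per replicate number it was 0.530.

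An exact two-sided permutation test was made on log2(CPM + 0.5), each IP library minus the input of the same number. It gave p = 0.0794 for Sting1 over 126 permutations (0.179 adjusted over 3 genes), where the smallest p possible was 0.00794. The difference was 2.14, with chronic replicate 1 at 0 in IP. Of 13 genes of the STING pathway and DNA sensing Sting1 was the one called, and the list's median was 0.23.

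Colgalt2, the gene that drives the tag, had 102, 81.4, 92.3 and 69.1 CPM in the chronic IP libraries, against 95.0, 75.8, 49.1, 75.5 and 46.6 CPM in the healthy IP libraries. The ranges overlapped, the log2 interaction was 0.38 ± 0.25 (SE, adjusted p = 0.579) and the permutation p was 0.119. Gpx4, a peroxidase of lipid hydroperoxides that restrains ferroptosis, had 323, 334, 202 and 145 CPM in the chronic IP libraries, against 307, 275, 319, 253 and 327 CPM in the healthy IP libraries. Chronic replicates 3 and 4 were below every healthy library and replicates 1 and 2 were not. For Gpx4 the log2 interaction was -0.32 ± 0.37 (SE, adjusted p = 0.939), and the permutation p was 0.198.

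The interferon, MHC and complement lists had median changes above 0 in both fractions. No difference between the fractions was called for their members in the main fit or by voom. Of 29 interferon response genes 0 were called in the interaction by edgeR's quasi-likelihood test or by voom, 9 had an unadjusted p under 0.05 and DESeq2 called 4. In the separate input fit 21 of the 29 were called higher (2.33% of all genes), and 14 were called higher in IP in the joint fit (6.88%). The list had a median log2 change of 2.07 in IP and 1.70 in input and a median interaction of 0.60, which ran from -0.13 to 0.66 in the leave-one-out fits. Bst2 and Irf7, the members with the smallest p, had adjusted p of 0.0557 and 0.0761. With the length and GC offset Bst2 was called (adjusted p = 0.0394) and Irf7 was not (adjusted p = 0.0696).

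The 14 genes of MHC class I presentation had a median change of 1.92 in IP and 2.36 in input, and the 7 of MHC class II had 2.15 in IP and 3.30 in input. The 9 complement genes tested had 2.19 in IP and 1.27 in input. In these 3 lists 0 genes were called in the interaction by edgeR's quasi-likelihood test or by voom, while 2, 2 and 1 had an unadjusted p under 0.05 and DESeq2 called 3, 1 and 2. C4b, complement component 4B, had 25.6, 25.5, 6.64 and 150.1 CPM in the chronic IP libraries, against 0, 3.88, 6.15, 5.38 and 0 CPM in the healthy IP libraries, and 16.1, 23.8, 17.3 and 59.1 CPM in chronic input, against 3.22, 5.72, 5.55, 4.28 and 4.53 CPM in healthy input. It was higher in chronic libraries of both fractions without overlap, with chronic replicate 4 far above the others, and its interaction of 1.43 ± 1.14 had an adjusted p of 0.758. The 8 leukocyte markers tested had a median interaction of -2.91, with 0 called by edgeR, voom or DESeq2 and 1 at an unadjusted p under 0.05, and 6 of the 8 were called higher in input fitted apart, against the same 2.33%. As most of these genes are at 0 in IP, that median rests on fitted values and is no bound. In astrocytes, Gfap, the intermediate filament of reactive astrocytes, had 91.7, 276, 206 and 318 CPM in the chronic IP libraries, against 26.6, 96.9, 44.5, 54.1 and 12.3 CPM in the healthy IP libraries, and an interaction of 0.98 ± 0.48 (SE, adjusted p = 0.297). A missed threshold does not show that the 2 fractions changed alike.

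**Figure D4:**
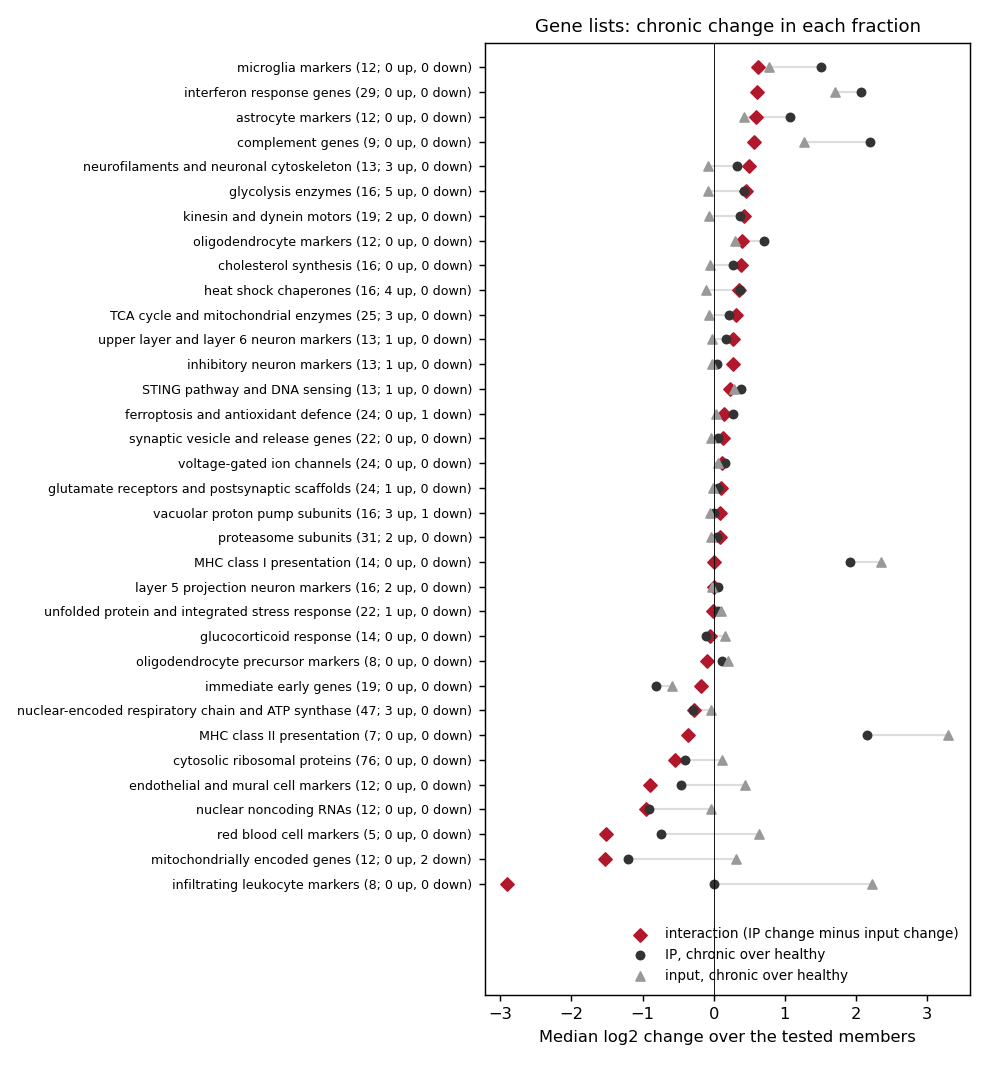
Median log2 change in chronic EAE over healthy mice of each gene list, in IP (black circles), in input (grey triangles) and as the interaction (red diamonds); the label gives the genes tested and those called higher (up) and lower (down). Glycolysis and neurofilament lists lie right of 0 in IP and near 0 in input, whereas interferon and MHC lists lie right of 0 in both fractions.

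Ribosomal protein genes lay on the lower side as a group without a call. Of 76 cytosolic ribosomal proteins 74 had a log2 interaction below 0, and the median was -0.54. By edgeR's quasi-likelihood test, voom or DESeq2 0 were called. By edgeR 10 of the 76 had an unadjusted p under 0.05, against 2734 of all 16580 genes. The median change was -0.41 in IP and 0.12 in input. Rpl28, with the smallest p, had -0.74 (adjusted p = 0.0824). With the length and GC offset the median was -0.28, and it ran from -0.67 to -0.40 in the leave-one-out fits.

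In the remaining lists 0 genes were called by edgeR's quasi-likelihood test or by voom. The median log2 interaction was 0.63 for 12 microglia, 0.60 for 12 astrocyte, 0.39 for 12 oligodendrocyte, -0.10 for 8 oligodendrocyte precursor, -0.90 for 12 endothelial and mural and -1.52 for 5 red blood cell markers. It was 0.39 for 16 genes of cholesterol synthesis, 0.14 for 22 synaptic vesicle genes, 0.11 for 24 voltage-gated ion channels, -0.05 for 14 glucocorticoid response genes, -0.17 for 19 immediate early genes and -0.95 for 12 nuclear noncoding RNAs. Unadjusted p-values under 0.05 numbered 0, 4, 2, 1, 0 and 0 in the marker lists and 3, 4, 4, 2, 0 and 5 in the others, in the same order. Among all 16580 genes they numbered 2734. DESeq2 called 0, 2, 1, 0, 0 and 0, and 1, 2, 0, 1, 0 and 2, against 958 of all 16580 genes. With 1 pair left out the median lay between -0.49 and 1.06 for microglia, 0.06 and 0.69 for astrocyte, 0.13 and 0.52 for oligodendrocyte, -0.36 and 0.43 for oligodendrocyte precursor, -1.49 and -0.45 for endothelial and mural and -1.85 and -0.72 for red blood cell markers. It lay between 0.16 and 0.39 for cholesterol synthesis, 0.10 and 0.20 for synaptic vesicle genes, -0.06 and 0.21 for ion channels, -0.21 and 0.12 for glucocorticoid response genes, -0.29 and -0.11 for immediate early genes and -1.20 and -0.66 for nuclear noncoding RNAs.

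Gene length moved with the interaction over all genes. Among genes at average log2 CPM 5 or more, the median log2 interaction was -0.35 in the 600 genes with the shortest exon sum (57 to 1732 bases) and 0.22 in the 601 with the longest (9591 to 41324 bases), while the input change stayed at -0.01 to -0.02. The median exon sum was 5082 bases in the 105 higher genes and 2667 bases in the 65 lower genes. It was 3571 bases in all tested genes and 4292 bases in those at average log2 CPM 5 or more. The higher and lower genes also differed in level, with a median average log2 CPM of 7.45 and 1.64. The slope of log2 level on length, relative to healthy input, was -0.28 to 0.04 in chronic IP and -0.46 to -0.17 in healthy IP, which overlapped, and near 0 in input. With an offset per library for length and GC content, chosen after seeing the data, 291 genes were called (1.77% of 16475), 183 higher and 108 lower, among them 93 of the 105 and 61 of the 65. Pygb had 1.39 with that offset, Pcx 1.28 and Copg1 0.78. Of the 70 called genes followed through the alternatives, 8 were not called with it. Among these were Snx3 (adjusted p = 0.193), mt-Cytb (0.130) and Arhgdia (0.0600). The part that length had in the calls was not tested.

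**Figure D5:**
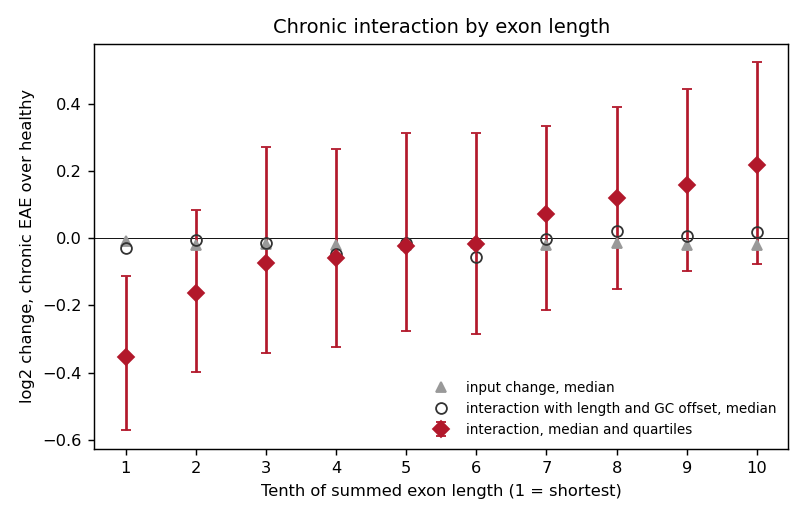
Median log2 interaction with quartiles (red diamonds) in 10 equal bins of summed exon length, from the shortest (1) to the longest (10), for genes at average log2 CPM 5 or more; grey triangles are the median input change and open circles the median interaction with the length and GC offset. The interaction runs from -0.35 to 0.22 across the bins, and with the offset the medians lie near 0.

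The same interaction in the acute phase, at day 15, called 1 gene of 16580 (0.00603%). Pygb had 0.85 at day 15 and 1.44 at day 30, Pcx 0.74 and 1.31, and Jpt1 -0.47 and -1.02. Both phases are set against the same healthy libraries, and these genes were chosen for their chronic value, so the acute values are a description and no sign of an acute change. The difference between the chronic and the acute interaction was called in 0 of 16580 genes by edgeR's quasi-likelihood test, with 2321 at an unadjusted p under 0.05, so no gene was shown to differ in this respect between the phases.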

How the data were processed

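RNA from IP and input of mouse cortex was sequenced in 28 libraries after poly A enrichment from total RNA, per the labels' protocols. The authors deposited raw counts made with featureCounts 1.5.1, which assigned read pairs to the exons of each gene of Ensembl release 79 (GRCm38) without regard to strand, per the file headers. The submitters' processing notes name STAR 2.4 and DESeq2. The header lists 36 alignment files, and those outside these 28 libraries were not analysed here. Without strand, antisense genes add to each other, and reads of paralogs and pseudogenes (of Hsp90ab1 or ribosomal proteins, for example) may be split or lost. Symbols came from the GENCODE M21 table for 97.3% of 43629 genes, and the others kept their identifiers. Sting1 was matched through a synonym.

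The counts were tested with edgeR 4.0.16 in R 4.3.3. Low genes were removed by filterByExpr on the 6 groups, with a minimum count of 10 and a total of 15. The fit used TMM scaling and the robust quasi-likelihood F test in 1 fit of all 28 libraries, with Benjamini-Hochberg adjustment and calls at an adjusted p under 0.05. A gene that passes the filter through 1 group alone can hold zeros in the others. CPM are on TMM-scaled totals, and folds against groups at 0 use a floor of 3 counts over the group, for counting error only. In the main fit, IP and input of the same replicate number were not taken as pairs. Alternatives used limma 3.58.1 (voom with quality weights by fraction), DESeq2 1.42.0, other filters, each fraction fitted apart, a replicate block, each numbered IP and input pair left out, and, added after seeing the data, an offset per library for exon length and GC content (lowess, span 0.3). The alternatives for the gene lists, the acute interaction and the permutation tests were also added after seeing the data. The script was also tested on simulated data, where both the joint fit and voom made some false calls. The permutation test used a pseudocount of 0.5 CPM and subtracted from each IP library the input of the same phase and number. Plots used matplotlib 3.10.9 under Python 3.11.15.

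The members and the 34 gene lists (630 symbols, 622 tested) were chosen with earlier results of these data known. In each direction, the 10 called genes with the smallest p and the 10 with the largest absolute log2 interaction were named, at average log2 CPM 3 or more and without provisional symbols. Up to 4 called members of each list, or the 2 with the smallest p where none was called, were also eligible, and Colgalt2, Sting1 and Gpx4 were always given. Other list members in the text (Gapdh, Pgk1, Cs, Gpi1, Dynll2, Fezf2, Bcl11b, C4b and Gfap) and other genes marked as such were chosen after their values were seen. Some genes that the rule names are not reported here.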

Additional observations from a re-analysis of the deposited data

Results flagged for a closer look

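The chronic change differed between IP and input in 105 genes where it was higher in IP and in 65 where it was lower, by the test of the difference itself.

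Single libraries stood apart from the others of their group in 23 of 352 groups examined (88 named genes in 4 groups), by the gap to the nearest library relative to the range of the group. Chance marks about 1 in 20 groups of normally distributed values. Groups with reads in 1 library alone are always marked, and groups without any spread are never marked but are counted in the 352. Chronic IP replicate 1 had 5.92 CPM for mt-Nd4 (others 21.6 to 26.9 CPM) and 0 CPM for Tap2 (others 9.03 to 14.7 CPM). Chronic IP replicate 3 had 933 CPM for Hspa4 (others 612 to 624 CPM). Chronic IP replicate 4 had 2.38 CPM for Ptprc (others 0). Healthy IP replicate 1 had 1227 CPM for Eef2 (others 1559 to 1675 CPM) and 4.88 CPM for Ptprc (others 0). Healthy IP replicate 4 had 117 CPM for Lonp2 (others 84.4 to 92.2 CPM), 1.91 CPM for Lcn2 (others 0), 5.10 CPM for Tmem119 (others 0) and 1.23 CPM for Tap2 (others 0). Healthy IP replicate 5 had 75.7 CPM for Pygb (others 121 to 135 CPM). Chronic input replicate 1 had 3749.8 CPM for Camk2n1 (others 3040.2 to 3143 CPM). Chronic input replicate 4 had 283 CPM for Pfkp (others 317 to 324 CPM), 211 CPM for Uqcrc2 (others 228 to 229 CPM), 458 CPM for Got1 (others 503 to 508 CPM), 331 CPM for Hk1 (others 370.4 to 371 CPM) and 121 CPM for Mag (others 58.1 to 59.9 CPM). Healthy input replicate 1 had 103 CPM for Jpt1 (others 93.4 to 94.0 CPM). Healthy input replicate 2 had 3.12 CPM for Irf7 (others 0.866 to 1.05 CPM). Healthy input replicate 3 had 2803 CPM for Camk2n1 (others 3179 to 3305 CPM), 141 CPM for Kif3a (others 164 to 167 CPM) and 40.8 CPM for Bcas3 (others 49.2 to 52.2 CPM). Healthy input replicate 5 had 102 CPM for Tsc22d3 (others 85.7 to 90.2 CPM).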

How the results depend on the processing

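The count of 170 genes was 228 with DESeq2's size factors, 121 with a mean of at least 10 CPM in IP and 155 in the 18 chronic and healthy libraries. It was 47 with no filter on low counts, 958 with the DESeq2 Wald test, 47 with voom, 24 without the 2 IP libraries with the fewest genes (with their inputs) and 291 with the length and GC offset, and the causes of these differences were not tested. Leaving out 1 numbered pair gave 43 to 148. Of the calls 61.8% were higher, against 76.6% with no filter, 85.1% with at least 10 CPM in IP, 47.4% with DESeq2 and 74.4%, 43.5%, 72.6% and 76.2% without chronic replicates 3 and 4 and healthy replicates 3 and 4.

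The labels do not say that same-numbered IP and input libraries share a mouse. The numbers were not taken as pairs in the main fit because not every pair passed 0.1, a limit set by choice. The correlations below do not show that the libraries are unpaired. The permutation test and the leave-one-out fits did group libraries by number. Deviations of same-numbered IP and input libraries correlated at -0.00322 to 0.203, over 0.1 in 5 of 9. Of the 9 libraries, 6 correlated best with their own number. A replicate block gave 46 calls (87.0% higher; 33 of the 105 higher and 3 of the 65 lower genes among them) and a replicate block by subtraction in limma 49 (81.6% higher). With the block 33 of the 70 called genes followed were called, and Uvssa, Itga2b, Fgfbp3, Ccdc153 and Plgrkt were not (adjusted p 0.0796 to 0.230).

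Among list genes the 34 calls became 18 with no filter, 78 with DESeq2, 10 with voom, 5 without the 2 libraries and 10 to 30 with 1 pair left out. The 2550 genes of chronic against healthy IP became 26 with IP fitted apart, 38 with voom and 1492 to 2666 with 1 pair left out. The 0 genes in input (120 at an unadjusted p under 0.05, edgeR) became 449 with input fitted apart, 579 with voom and 0 to 1 with 1 pair left out. The acute interaction's 1 gene became 363 with DESeq2, 0 with voom and 0 with the offset (edgeR gave 1901 at an unadjusted p under 0.05). In the permutation tests the difference was 0.29 to 0.55 for Colgalt2, 1.25 to 3.13 for Sting1 and -0.60 to -0.14 for Gpx4 with 1 pair left out. Sting1 had p = 0.0179 (exact) without chronic replicate 1, its chronic IP library at 0 CPM, which is the smallest p possible there. Gpx4 had p = 0.0357 (exact) without chronic replicate 2. These p-values were not adjusted over genes or over the pairs left out.

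Over the named genes and their alternatives, 1131 values kept their direction and side of the threshold, 503 kept the direction but lost the call, 22 gained it and 1 reversed: Ptprc, at a log2 interaction of -8.68 to 4.56 with 1 pair left out, was above 0 without healthy replicate 1. Low IP detection limits every result on genes of few counts.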
